A study of Mus musculus with 6 samples.

Results

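The 10 genes described here encode receptors and a kinase that mark mitochondria for degradation (Pink1, Fundc1, Phb2, Bcl2l13 and Fkbp8) and the proteins that divide and join mitochondria (Mfn1, Mfn2, Opa1, Dnm1l and Fis1). They were chosen by symbol from the 22298 entries of the deposited table, all 10 were found, and all 10 were among the 12001 genes with a mean of at least 0.5 FPKM over the 6 libraries, which were tested. FPKM counts sequenced fragments per kilobase of gene, scaled to a total of the library, so levels of different genes can be set beside each other. Which total was used is not given in the sources used here. RNA came from whole ocular lenses of mice of the labelled strain C57BL/6 at postnatal day 0. One group carried the genotype labelled Fyco1-/- (3 libraries) and the other was wild type, WT (3 libraries). Each library was a biological replicate made from 10 pooled lenses, and the letters A, B and C name the libraries within a genotype. Where 3 values stand for a genotype, they are those of its libraries A, B and C in that order. How the Fyco1 allele was made is not given in the sources used here.

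Mitophagy is the removal of mitochondria by autophagosomes. In the ubiquitin branch the kinase PINK1 builds up on damaged mitochondria and activates the ubiquitin ligase Parkin, and adaptor proteins then bind the ubiquitin and the autophagosome. In the receptor branch, proteins of the mitochondrial membranes bind LC3 on the autophagosome directly. Mitochondria also divide, through the dynamin-related protein DRP1 (gene Dnm1l), and fuse, through mitofusins on the outer membrane and OPA1 on the inner membrane. Fibre cells of the lens lose their mitochondria as they mature, and the FYCO1 protein couples autophagosomes to kinesin for transport along microtubules. The comparison asks whether the level of these transcripts depends on the Fyco1 genotype at birth.

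Of the 10 genes, Pink1 was higher in Fyco1-/- lenses (1.23-fold in mean FPKM) and the other 9 did not pass the test. That is 1 of 10 genes called, against 8.43% of all tested genes (limma on log2(FPKM + 0.5), Benjamini-Hochberg adjusted p under 0.05 over all tested genes, two-sided). The called share of all genes was 3.42% higher and 5.02% lower, and 40.5% of these calls were higher here against 56.5% with median-of-ratios scaling. An unadjusted p under 0.05 was found for 2 of the 10, Pink1 and Fis1, against 24.4% of all tested genes. In 3 of the 10 the values of the genotypes did not overlap, Pink1 and Fis1 higher and Fkbp8 lower in Fyco1-/- lenses, against 29.7% of all tested genes (11.1% higher and 18.6% lower). These shares of the 10 genes were near those of all genes. The median size of the log2 fold change, whatever its sign, was 0.09 over the 10 genes and 0.12 over all tested genes, and 5 of the 10 changes were positive and 5 negative (7 and 3 with median-of-ratios scaling, 6 and 4 with quantile normalization). Lens RNA was sequenced in bulk, so fewer cells of a type and less RNA per cell cannot be told apart.

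**Figure D1:**
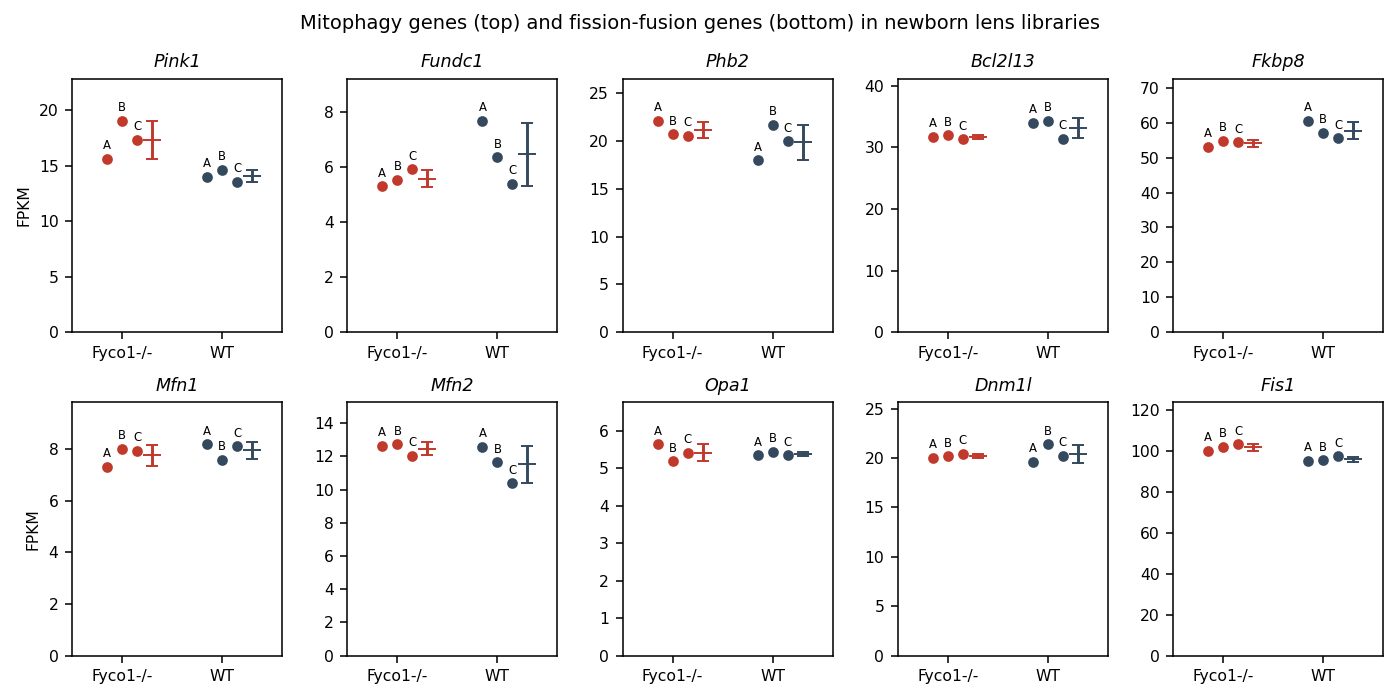
FPKM (linear axes from 0) of the 10 genes in each library, with Fyco1-/- libraries in red on the left and WT libraries in dark blue on the right of each panel; letters name the libraries, and the bar beside each group is its mean with the SD (n = 3). Pink1, Fkbp8 and Fis1 are the panels in which the 3 values of the genotypes do not overlap, and Fundc1 has its widest spread in WT, from 5.39 to 7.67 FPKM.

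The targeted gene and the tissue were checked first. Fyco1 (chromosome 9, GRCm38) measured 4.61, 4.59 and 4.87 FPKM in Fyco1-/- lenses, against 5.40, 5.21 and 5.11 FPKM in WT lenses. The difference was not called (log2 fold change -0.15, limma adjusted p = 0.273), and a level over the whole gene does not settle the genotype. None of the 10 genes lies on chromosome 9. All 9 lens markers looked at were above 1 FPKM on average. The lowest was Lim2, with a mean of 3.31 FPKM in Fyco1-/- and 2.95 FPKM in WT lenses. The highest was Cryaa, with a mean of 119918 FPKM in Fyco1-/- and 116253 FPKM in WT lenses. Of the 9 lens markers, 2 were called lower, against 5.02% of all tested genes. They were Pax6 (log2 fold change -0.19, limma adjusted p = 0.0398) and Prox1 (log2 fold change -0.18, limma adjusted p = 0.0131). Foxe3 had the largest change of the 9 but was not called (log2 fold change -0.44, limma adjusted p = 0.109). Gja3 was higher in all Fyco1-/- than in all WT libraries and was not called (log2 fold change 0.08, limma adjusted p = 0.147). Summed FPKM of red blood cell markers was 102 to 241 in Fyco1-/- and 81.4 to 195 in WT libraries, and that of vessel and pericyte markers was 33.8 to 36.1 in Fyco1-/- and 33.1 to 46.3 in WT libraries. Macrophage markers summed to 1.78 to 2.56 FPKM in Fyco1-/- and 2.30 to 4.16 FPKM in WT libraries, and retina markers to 1.13 to 2.74 FPKM in Fyco1-/- and 1.40 to 1.71 FPKM in WT libraries. Markers of cornea, iris and mesenchyme (5 of 7 in the table) summed to 4.42 to 5.47 FPKM in Fyco1-/- and 5.55 to 7.37 FPKM in WT libraries, which do not overlap. Of 31 markers outside the lens list, 18 passed the filter and were tested, 0 of these were called, and none of the 31 was at 0 in all libraries. In 4 of the 31 all Fyco1-/- values lay below all WT values, against 18.6% of all tested genes. These were the collagen genes Col1a1 and Col3a1 and the untested macrophage genes Emr1 and Ptprc. The part of these tissues in the values below was not tested. The steps between small FPKM values imply depths of 18.8, 19.5 and 19.0 M reads for the Fyco1-/- libraries, against 17.1, 20.1 and 17.4 M reads for the WT libraries.

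Pink1 encodes the kinase that phosphorylates ubiquitin and Parkin on mitochondria that have lost their membrane potential. The gene (ENSMUSG00000028756) lies at chr4:138313409-138326307 on the minus strand of GRCm38. The 250 bases before its RefSeq start (GRCm38.p6, chr4:138326297-138326546, minus strand) and those before the start of Opa1 (chr16:29579084-29579333, plus strand) are shown because both hold CGCNTGCG, the core letters of the site bound by the factor NRF1, which is known for driving nuclear genes of mitochondria. The capitals mark the match.
Pink1: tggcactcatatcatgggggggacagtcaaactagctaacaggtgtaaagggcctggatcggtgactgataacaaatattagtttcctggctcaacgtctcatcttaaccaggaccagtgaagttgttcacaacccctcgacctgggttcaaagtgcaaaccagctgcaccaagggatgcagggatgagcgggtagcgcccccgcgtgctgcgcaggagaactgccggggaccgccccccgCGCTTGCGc
Opa1: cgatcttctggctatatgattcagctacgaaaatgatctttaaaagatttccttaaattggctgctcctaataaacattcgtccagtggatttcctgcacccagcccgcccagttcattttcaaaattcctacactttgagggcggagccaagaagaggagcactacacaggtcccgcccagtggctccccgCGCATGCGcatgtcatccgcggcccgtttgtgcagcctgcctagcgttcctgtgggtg
The match begins 9 bases before the start in Pink1 and 58 bases before it in Opa1. RefSeq gives 14 such windows for the 10 genes, since some have several starts. With both strands searched, 3 of the 14 windows held these letters, 1 each of Pink1, Opa1 and, 143 bases before its start, Bcl2l13, against 6.76% of 32851 RefSeq windows of the same length. Counted by gene, that is 3 of 10, against 7.65% of 27025 genes with a match in any window. The 27025 genes were not limited to those tested here. A match of letters is a description and not a bound site. Of these 3 genes Pink1 was called and Opa1 and Bcl2l13 were not.

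Pink1 measured 15.6, 19.0 and 17.4 FPKM in Fyco1-/- lenses, against 14.0, 14.7 and 13.6 FPKM in WT lenses. Every Fyco1-/- value lay above every WT value, with the smallest gap between Fyco1-/- A and WT B. The mean was 17.3 ± 1.70 FPKM in Fyco1-/- and 14.1 ± 0.55 FPKM in WT (SD, n = 3 libraries each, as for every mean here). The log2 fold change was 0.29 (SE 0.08, 95% interval 0.12 to 0.46, limma adjusted p = 0.0426). The FPKM values correspond to 700, 883 and 784 reads in Fyco1-/- lenses, against 569, 699 and 561 reads in WT lenses, if the shortest gene length that makes all 6 whole is the one the authors used. Reads at that depth carry a counting SD of 3.37% to 4.22% of the value, while the SD between libraries was 9.80% of the mean in Fyco1-/- and 3.91% in WT. The authors' deposited table gives Pink1 a log2 fold change of 0.32 with an adjusted p of 0.00462, and calls no other of the 10 genes (its own share of calls is 9.37% of 13066 genes, 5.22% higher and 4.15% lower).

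The call of Pink1 was kept in 1 of the 6 fits that left out a library. Such fits also called fewer genes in all, 607 to 863 against 1012 with every library. The log2 fold change of Pink1 stayed between 0.22 and 0.36 in 15 other settings, and it was called in 9 of them. It was not called without Fyco1-/- B (adjusted p = 0.139), Fyco1-/- C (0.105), WT A (0.112), WT B (0.0771) or WT C (0.107), nor without a filter on low values (0.113), all from limma.

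**Figure D2:**
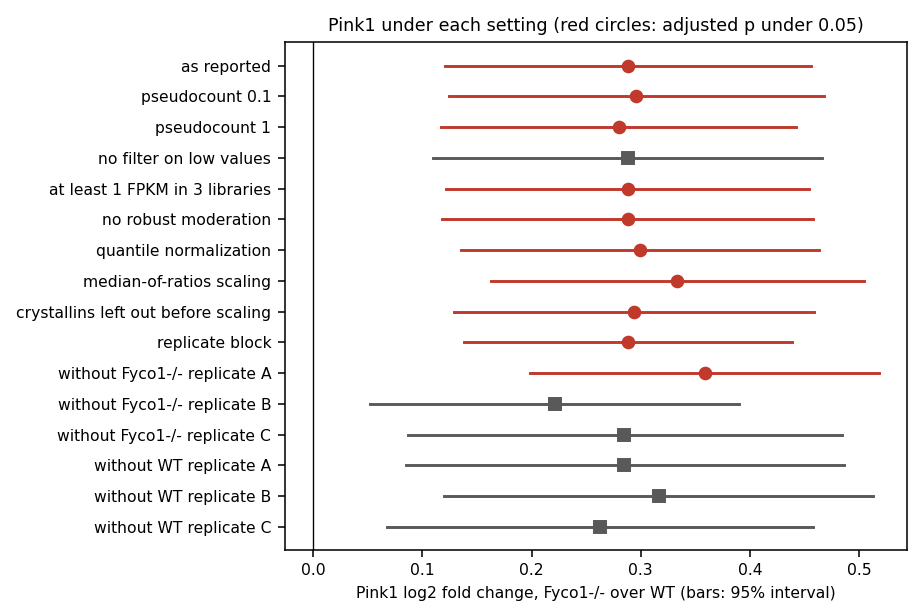
Log2 fold change of Pink1, Fyco1-/- over WT, with its 95% interval under the reported setting and 15 others; red circles mark a limma adjusted p under 0.05 and grey squares mark the rest. All intervals lie above 0, and 5 of the 6 fits that leave out a library have an adjusted p above 0.05.

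The receptors of the outer membrane did not pass the test. Fundc1, a receptor tied to low oxygen (chrX:17556564-17572325, minus strand), measured 5.30, 5.53 and 5.92 FPKM in Fyco1-/- lenses, against 7.67, 6.35 and 5.39 FPKM in WT lenses. WT A and WT B lay above all Fyco1-/- values and WT C fell among them, so the groups overlap. The log2 fold change was -0.19 (95% interval -0.44 to 0.07, limma adjusted p = 0.355), and the SD was 5.61% of the mean in Fyco1-/- and 17.7% in WT lenses, where counting alone gives 6.20% to 7.33%.

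Fkbp8 encodes a membrane-anchored immunophilin that binds LC3 and the survival protein BCL2 (chr8:70527724-70535328, plus strand). It measured 53.0, 54.9 and 54.4 FPKM in Fyco1-/- lenses, against 60.5, 57.2 and 55.5 FPKM in WT lenses. All Fyco1-/- values lay below all WT values, by 0.09 on the log2 scale (95% interval -0.19 to 0.01), with a limma adjusted p of 0.246. Bcl2l13, a BCL2-like protein that stands in for the yeast receptor Atg32 (chr6:120836212-120892842, plus strand), measured 31.7, 32.0 and 31.3 FPKM in Fyco1-/- lenses, against 34.0, 34.3 and 31.4 FPKM in WT lenses. WT C lay among the Fyco1-/- values while WT A and WT B lay above them. Its log2 fold change was -0.07 (95% interval -0.18 to 0.05, limma adjusted p = 0.456).

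Phb2 encodes prohibitin 2 of the inner membrane, a scaffold that also binds LC3 once the outer membrane has ruptured (chr6:124712336-124716950, plus strand). It measured 22.1, 20.7 and 20.6 FPKM in Fyco1-/- lenses, against 18.0, 21.6 and 19.9 FPKM in WT lenses. The groups overlapped, with WT A the lowest library, and the log2 fold change was 0.09 (95% interval -0.07 to 0.25, limma adjusted p = 0.485). Prohibitins work as a ring of PHB2 with its partner, whose gene Phb averaged 37.4 ± 2.24 FPKM in Fyco1-/- and 36.3 ± 0.646 FPKM in WT (limma adjusted p = 0.681). The log2 ratio of Phb2 over Phb was -0.81 ± 0.069 in Fyco1-/- and -0.86 ± 0.14 in WT libraries, a difference of 0.05 (exact permutation test over libraries, two-sided, p = 0.7, adjusted p = 0.7 over 4 ratios).

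Of the fusion genes, none was called. Mfn1 encodes the mitofusin with the stronger tethering activity (chr3:32529465-32579239, plus strand) and measured 7.30, 8.01 and 7.95 FPKM in Fyco1-/- lenses, against 8.18, 7.59 and 8.11 FPKM in WT lenses. Mfn2 encodes the mitofusin that also tethers mitochondria to the endoplasmic reticulum and is a substrate of PINK1 and Parkin (chr4:147873599-147904704, minus strand). It measured 12.6, 12.7 and 12.0 FPKM in Fyco1-/- lenses, against 12.6, 11.6 and 10.4 FPKM in WT lenses. Both mitofusin genes overlapped between genotypes. The log2 fold change was -0.04 for Mfn1 (95% interval -0.19 to 0.12, limma adjusted p = 0.814) and 0.11 for Mfn2 (95% interval -0.06 to 0.28, limma adjusted p = 0.411). Mfn2 stood above Mfn1 in all 6 libraries, with a log2 ratio of 0.65 ± 0.093 in Fyco1-/- and 0.51 ± 0.15 in WT, a difference of 0.15 (exact permutation test, two-sided, p = 0.3, adjusted p = 0.6 over the 4 ratios). Opa1, the dynamin-like protein that fuses inner membranes and keeps cristae narrow (chr16:29579334-29654884, plus strand), measured 5.63, 5.18 and 5.41 FPKM in Fyco1-/- lenses, against 5.34, 5.43 and 5.34 FPKM in WT lenses. The Opa1 values of the genotypes lay across each other (log2 fold change 0.01, 95% interval -0.16 to 0.17, limma adjusted p = 0.958).

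Of the fission genes, Fis1 came nearest to a call. Fis1 encodes an outer membrane protein first known as the yeast anchor of the fission dynamin (chr5:136953275-136966234, plus strand). It measured 100.1, 102 and 103 FPKM in Fyco1-/- lenses, against 95.1, 95.5 and 97.5 FPKM in WT lenses. All Fyco1-/- values lay above all WT values, by a log2 fold change of 0.08 (SE 0.04, 95% interval 0.00 to 0.16), but with an unadjusted p of 0.0418 the limma adjusted p was 0.185. Dnm1l (chr16:16312230-16358959, minus strand) measured 20.0, 20.2 and 20.4 FPKM in Fyco1-/- lenses, against 19.6, 21.4 and 20.2 FPKM in WT lenses. The groups overlapped, and the interval of the log2 fold change, -0.13 to 0.11 around -0.01, leaves room for a fold of 0.913 to 1.08 (limma adjusted p = 0.922). The log2 ratio of Fis1 over Dnm1l was 2.29, 2.31 and 2.31 in Fyco1-/- lenses, against 2.25, 2.13 and 2.24 in WT lenses. These ratios did not overlap, and the difference of 0.10 had the smallest p that an exact permutation test of 3 against 3 libraries can give (two-sided p = 0.1, adjusted p = 0.4 over the 4 ratios). The log2 ratio of Dnm1l over Opa1, fission over fusion, was 1.81 ± 0.061 in Fyco1-/- and 1.83 ± 0.049 in WT, a difference of -0.02 (exact permutation test, two-sided, p = 0.6, adjusted p = 0.7).

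**Figure D3:**
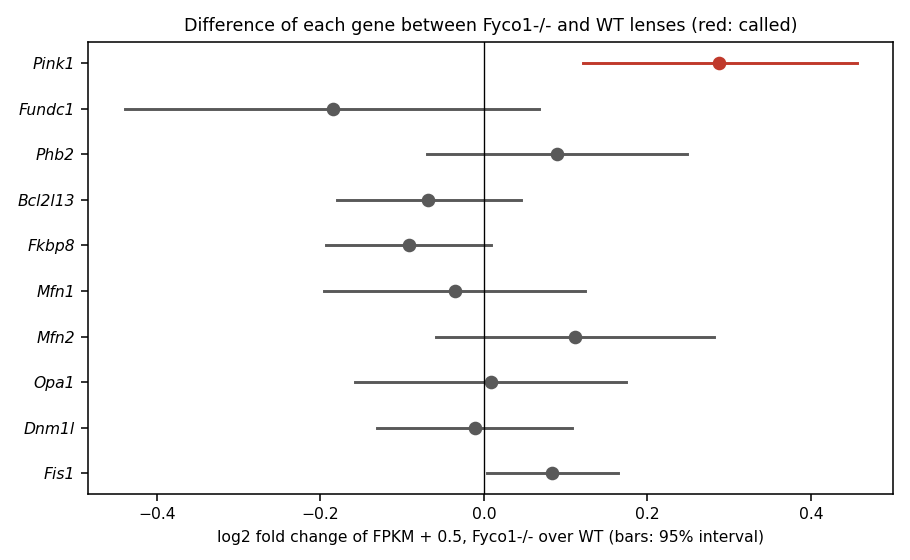
Log2 fold change of FPKM + 0.5, Fyco1-/- over WT, for the 10 genes, with 95% intervals from limma; the called gene is red and the others grey. Pink1 (0.29) lies apart from 0, the interval of Fis1 starts just above 0, and Fundc1 has the widest interval.

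The levels of the 10 genes spanned from Opa1, at 5.41 ± 0.226 FPKM in Fyco1-/- and 5.37 ± 0.0512 FPKM in WT lenses, to Fis1, at 102 ± 1.63 FPKM in Fyco1-/- and 96.0 ± 1.29 FPKM in WT lenses. Opa1 stood above 56.4% of the tested genes and Fis1 above 97.3%. By the WT mean the order was Fis1, Fkbp8, Bcl2l13, Dnm1l, Phb2, Pink1, Mfn2, Mfn1, Fundc1 and Opa1. Fis1 above Fkbp8, Fkbp8 above Bcl2l13 and Bcl2l13 above Dnm1l held in all 6 libraries with ranges that did not overlap, as did Pink1 above Mfn2 and Mfn2 above Mfn1. The ranges of Dnm1l and Phb2 overlapped over the 6 libraries, with Dnm1l the higher in 0 of 3 Fyco1-/- and 2 of 3 WT libraries. Within Fyco1-/- lenses every Phb2 value lay above every Dnm1l value. Fundc1 was above Opa1 in 2 of 3 Fyco1-/- and 3 of 3 WT libraries, and the ranges of this pair overlapped. Phb2 was above Pink1 in every library, by a ratio of mean FPKM of 1.22 in Fyco1-/- and 1.41 in WT, though the ranges of the pair overlapped across libraries. Mfn1 was likewise above Fundc1 in all 6 libraries with overlapping ranges.

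Around these genes, 93 further genes of 8 lists on mitochondrial dynamics and turnover were in the table, and 87 were tested. Of the 87, 5 were called higher and 1 lower in Fyco1-/- lenses (6.90%, against 8.43% of all tested genes). The median log2 fold change of the 87 was -0.03 and that of all tested genes -0.04, with 37 positive and 50 negative values. The called genes encode 3 ubiquitin-binding adaptors, a kinase of the same pathway, an adaptor of mitochondrial transport and an actin factor of fission. Differences between the lists were not tested.

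**Figure D4:**
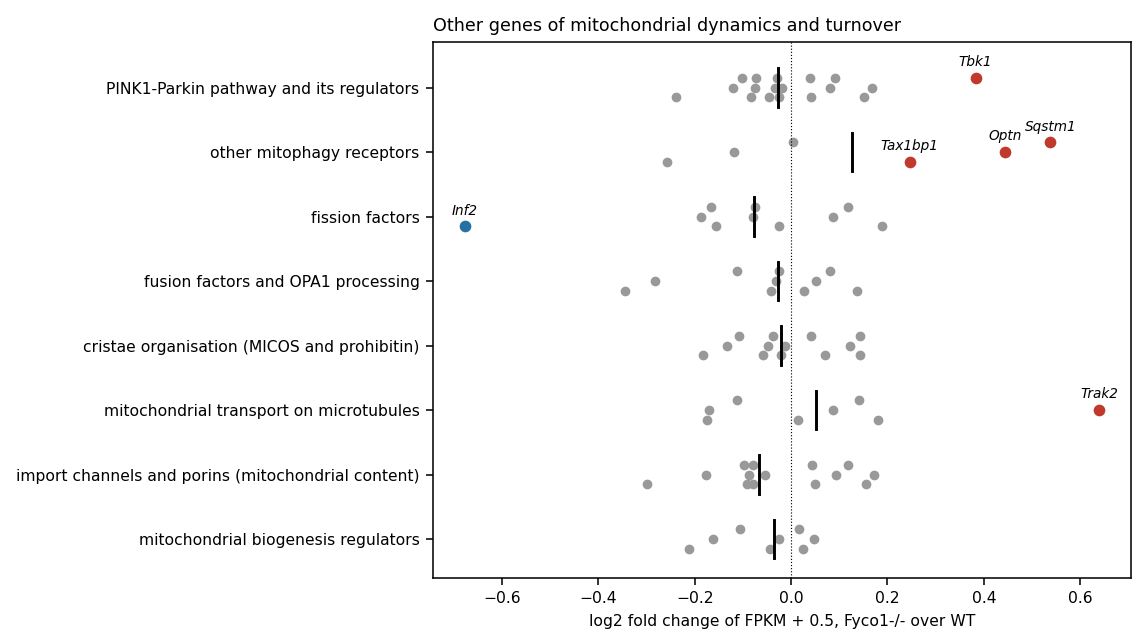
Log2 fold change of FPKM + 0.5, Fyco1-/- over WT, of each tested gene in 8 lists; black bars are list medians, red points were called higher and blue points lower by limma, and grey points were not called. Tbk1, Sqstm1, Optn, Tax1bp1 and Trak2 are the genes called higher and Inf2 the gene called lower.

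In the list of the PINK1-Parkin pathway and its regulators, 1 of 18 tested genes was called higher, against 3.42% of all tested genes. In this list 0 were called lower, and the median log2 fold change was -0.03. The call was Tbk1, the kinase that phosphorylates the adaptors optineurin and p62. Tbk1 measured 7.47, 6.91 and 7.92 FPKM in Fyco1-/- lenses, against 6.00, 5.90 and 4.89 FPKM in WT lenses, without overlap. The log2 fold change was 0.38 (SE 0.09, 95% interval 0.18 to 0.59, limma adjusted p = 0.0325). The Tbk1 call was lost without Fyco1-/- A (adjusted p = 0.0716), Fyco1-/- C (0.109), WT B (0.0592) or WT C (0.0738). The 250 bases before the start of Tbk1 also hold the letters searched for above, read on the opposite strand. The windows of the other called genes of the lists do not hold them, and 7.65% of RefSeq genes have a match. Parkin itself, listed in the table as Park2 and named here after its values were seen, was low, at 1.07, 0.872 and 0.895 FPKM in Fyco1-/- lenses, against 0.946, 1.05 and 0.977 FPKM in WT lenses (log2 fold change -0.05, 95% interval -0.33 to 0.24, limma adjusted p = 0.869).

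Among other mitophagy receptors 3 of 6 tested genes were called higher and 0 lower, against 3.42% higher and 5.02% lower of all tested genes. The median log2 fold change of this list was 0.13. The called genes encode soluble adaptors that bind ubiquitin and LC3 and carry cargo other than mitochondria too. Sqstm1, which encodes p62, measured 66.4, 59.2 and 59.7 FPKM in Fyco1-/- lenses, against 41.5, 43.1 and 42.3 FPKM in WT lenses. Optn, which encodes optineurin, measured 30.1, 33.8 and 34.4 FPKM in Fyco1-/- lenses, against 23.3, 25.8 and 22.6 FPKM in WT lenses. Tax1bp1 measured 31.7, 32.2 and 32.2 FPKM in Fyco1-/- lenses, against 27.0, 27.9 and 25.8 FPKM in WT lenses. Of the 6 tested genes of this list, 3 lay higher and 2 lower without overlap, against 11.1% higher and 18.6% lower of all tested genes. The 3 that lay higher are the called genes, so their lack of overlap adds nothing to the calls. The limma adjusted p values were 0.000228 for Sqstm1, 0.00354 for Optn and 0.0127 for Tax1bp1. All 3 were known from earlier results on these libraries when the list was drawn up, so their direction is not independent evidence. Of the exon bases of Sqstm1, 17.3% overlap Mrnip on the opposite strand, and the strand setting of the counting is not stated.

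The outer membrane receptors in the same list lay on the other side of 0 and did not pass the test. They are named here after their values were seen. Bnip3l encodes NIX, the receptor known for clearing mitochondria from lens fibres and red blood cells. It measured 81.8, 83.2 and 85.1 FPKM in Fyco1-/- lenses, against 92.4, 89.6 and 89.8 FPKM in WT lenses (log2 fold change -0.12, 95% interval -0.20 to -0.04, limma adjusted p = 0.085). Bnip3, its relative induced by low oxygen, measured 32.3, 29.8 and 35.4 FPKM in Fyco1-/- lenses, against 37.5, 37.0 and 42.1 FPKM in WT lenses (log2 fold change -0.26, 95% interval -0.42 to -0.10, limma adjusted p = 0.0558). In both genes all Fyco1-/- values lay below all WT values, as in 18.6% of all tested genes. Bnip3 was called lower in 3 of 15 other settings, with the replicate block (limma adjusted p = 0.0189), with a filter of 1 FPKM in 3 libraries (0.0459) and without Fyco1-/- C (0.0297). Bnip3l was called lower in 1 of them, quantile normalization (0.0365). For Bnip3, 22.3% of exon bases overlap an antisense transcript.

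Trak2 had the largest rise of the 87 tested genes and Inf2 the largest fall. Trak2 encodes an adaptor that joins the mitochondrial Miro proteins to kinesin and dynein. It was the 1 call higher among 8 tested genes of mitochondrial transport on microtubules, against 3.42% of all tested genes. That list had 0 calls lower and a median log2 fold change of 0.05. Trak2 measured 6.05, 5.94 and 6.39 FPKM in Fyco1-/- lenses, against 3.70, 3.79 and 3.76 FPKM in WT lenses. That is 1.63-fold in mean FPKM (log2 fold change 0.64, SE 0.08, 95% interval 0.47 to 0.81, limma adjusted p = 0.000744), and the libraries of each genotype lay close together. Inf2 encodes a formin that assembles actin on the endoplasmic reticulum before mitochondria divide. It was the 1 call lower among 10 tested fission factors, against 5.02% of all tested genes. That list had 0 calls higher and a median of -0.08. Inf2 measured 4.21, 4.26 and 3.49 FPKM in Fyco1-/- lenses, against 7.02, 7.16 and 5.85 FPKM in WT lenses. Every Fyco1-/- value was below every WT value, at 0.597 of the WT mean (log2 fold change -0.68, SE 0.10, 95% interval -0.91 to -0.44, limma adjusted p = 0.00342).

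**Figure D5:**
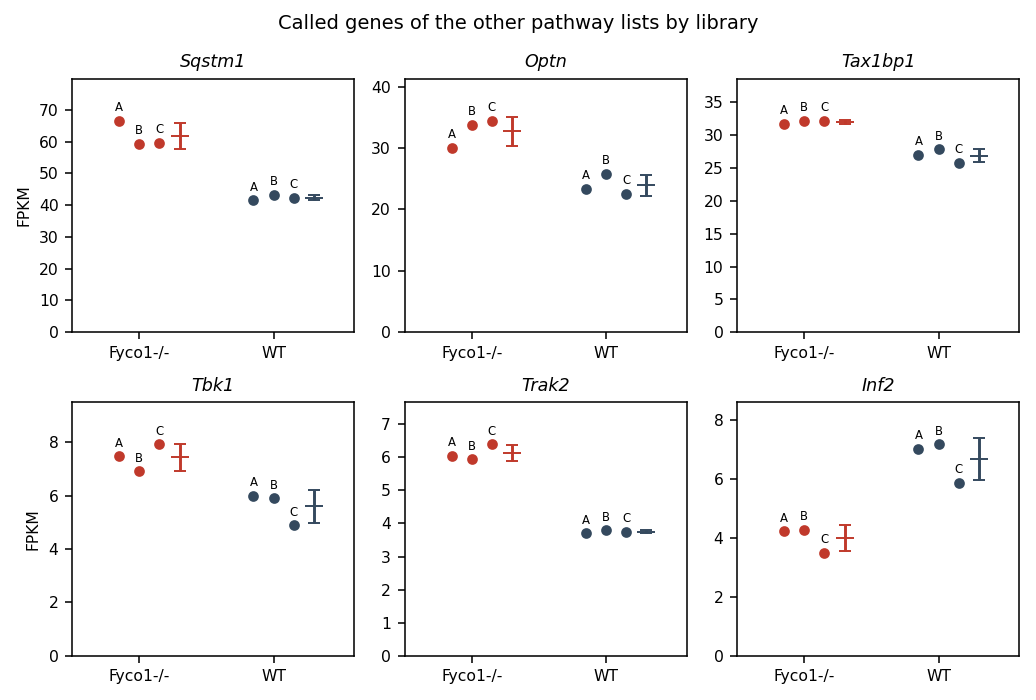
FPKM (linear axes from 0) of the 6 called genes of the lists in each library, Fyco1-/- in red on the left and WT in dark blue on the right, with the mean and SD (n = 3) beside each group. Sqstm1, Optn, Tax1bp1, Tbk1 and Trak2 are higher and Inf2 is lower in all 3 Fyco1-/- libraries.

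The lists that describe fusion, inner membrane shape and mitochondrial content held no call in either direction, against 8.43% of all tested genes. They were fusion factors and OPA1 processing (10 tested, median log2 fold change -0.03), cristae organisation (13 tested, median -0.02), import channels and porins (14 tested, median -0.07) and regulators of mitochondrial biogenesis (8 tested, median -0.03). The most abundant genes of the first 2 were Spg7 and Chchd4 for fusion and processing, and 2410015M20Rik, the RefSeq gene Micos13 of the MICOS complex, and Phb for cristae. Spg7, a protease of the inner membrane, averaged 24.2 ± 0.791 FPKM in Fyco1-/- and 25.0 ± 1.27 FPKM in WT. Chchd4, an oxidoreductase of the intermembrane space, averaged 18.6 ± 0.606 FPKM in Fyco1-/- and 16.9 ± 0.462 FPKM in WT, and 2410015M20Rik 61.1 ± 2.07 FPKM in Fyco1-/- and 61.6 ± 2.01 FPKM in WT. The limma adjusted p was 0.71 for Spg7, 0.163 for Chchd4 and 0.899 for 2410015M20Rik. Hspa9, the chaperone that pulls proteins into the matrix, averaged 73.0 ± 4.06 FPKM in Fyco1-/- and 64.6 ± 0.449 FPKM in WT and came close to the threshold (log2 fold change 0.17, limma adjusted p = 0.0503). Hspd1, the matrix chaperonin, averaged 56.2 ± 2.46 FPKM in Fyco1-/- and 60.0 ± 2.16 FPKM in WT (limma adjusted p = 0.272). Of the regulators, Gabpa averaged 7.98 ± 0.606 FPKM in Fyco1-/- and 7.82 ± 0.245 FPKM in WT, and Pprc1 5.72 ± 0.214 FPKM in Fyco1-/- and 6.49 ± 0.74 FPKM in WT (limma adjusted p = 0.88 for Gabpa and 0.3 for Pprc1).

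The authors' deposited table calls 8 of the listed genes higher and 1 lower among 91 with an adjusted p. Of all 13066 genes with an adjusted p there, 5.22% are called higher and 4.15% lower. The 6 listed genes called by limma are all among those the authors call. Both tests used the same 6 libraries, so this is not independent evidence. The 3 others are Spire1, an actin nucleator of fission sites (log2 fold change 0.24, adjusted p = 0.00304 in the authors' deposited table), Kif5b, the kinesin heavy chain (0.23, adjusted p = 0.00112), and Hspa9 (0.22, adjusted p = 0.00112).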

How the data were processed

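Total RNA of 6 lens libraries (3 Fyco1-/-, 3 WT) was sequenced as paired reads. Per the labels, the authors used STAR 2.5 for alignment to the GRCm38/mm10 genome and HTSeq 0.6.1 for counting per gene, and deposited FPKM, with 1 column per library. The gene annotation, strand setting and scaling total are not given in the sources used here. The authors also deposited log2 fold changes, p-values and adjusted p-values from DESeq2, quoted only where named.

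The test was limma 3.58.1 (R 4.3.3) on log2(FPKM + 0.5) of the 12001 genes whose FPKM averaged 0.5 or more, with genotype as its term and both trend and robust moderation. Log2 fold changes are on that scale and understate low genes. P-values were adjusted over all tested genes. Only the limma fit was also run on simulated data, and the result is not given here. Ratios used log2(FPKM + 0.5) of both genes. Reads per gene were recovered as the shortest gene length that gave whole numbers, within 0.02, in all 6 libraries, and every other length that did so was a multiple of it. Depth ran from 17.1 to 20.1 M reads, summed FPKM from 741913 to 760459, and crystallins took 70.2% to 71.7% of it. No interval based on counts is given.

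Positions came from GENCODE M21 (GRCm38). Promoter windows came from RefSeq (GRCm38.p6, 10 of 10 genes matched). Searched by blastn 2.17.0 at 95% identity over 100 bases, the 10 genes matched no transcript other than neighbours that overlap them. Exons overlap the opposite strand in Bcl2l13 (Bid, 6.91% of exon bases), Fkbp8 (Kxd1, 4.95%), Dnm1l (Gm49521, 4.67%) and Phb2 (Gm15884, 3.79%), so without strand those reads cannot be told apart. Pink1 shares exon bases with the miRNAs Mir7019 (2.58%) and Gm27646 (4.12%).

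The genes and lists were chosen with earlier results of these data known. All 10 genes are named, and from each list every called gene up to 4 or, where none was called, up to 2 of the most abundant. Listed genes with no row under a symbol searched (March5, Calcoco2 and Tomm6) were not analysed here. Library letters were not used to pair libraries in the reported fit and entered only as an alternative.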

Additional observations from a re-analysis of the deposited data

How the results depend on the processing

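The fits were repeated under 15 other settings. These were pseudocounts of 0.1 and 1, no expression filter, a filter of 1 FPKM in 3 libraries, limma without robust moderation, scaling by quantiles, by median of ratios or on a sum without crystallins, a replicate block, and 6 fits that each left out 1 library. Without a filter 0 of the 10 genes were called higher (Pink1 adjusted p = 0.113) and 568 genes in all, against 1012 as reported. Leaving out a library gave 607 to 863 genes called in all, 0 to 1 of the 10 genes higher and 0 lower in each fit, 4 to 6 listed genes higher and 1 to 2 lower. The other 9 genes were called in 0 of 15 settings. Listed genes called higher were 8 with median-of-ratios scaling. Those called lower were 2 with at least 1 FPKM in 3 libraries, 2 with quantile normalization and 2 with the replicate block, by the addition of Bnip3l with quantile normalization and of Bnip3 in the other settings. Same-letter libraries showed no common deviation over all tested genes (correlations of -0.03, 0.03 and 0.03 for A, B and C). With so few libraries this cannot decide whether the letters pair them. With the replicate block Pink1 kept its call (adjusted p = 0.0394) and Tbk1 did not (0.0608). Tbk1 was also not called without a filter (0.0919), and Hspa9 was called in 5 of 15 settings. Sqstm1, Optn, Tax1bp1, Trak2 and Inf2 were called in 15 of 15.

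Signs turned only in changes near 0. The log2 fold change of Mfn1 was 0.0034 with quantile normalization and 0.0082 with median-of-ratios scaling, and ran from -0.07 to 0.0046 (without Fyco1-/- A) with a library left out. That of Dnm1l was 0.034 with median-of-ratios scaling and ran from -0.038 to 0.022 (without WT B) with a library left out, and that of Opa1 from 0.037 to -0.018 (without Fyco1-/- A). With median-of-ratios scaling Spg7 was at 0.0047 and 2410015M20Rik at 0.034. With a library left out, 2410015M20Rik ran from -0.038 to 0.0099 and Gabpa from -0.006 to 0.09. With a library left out, the difference in the log2 ratio ran from -0.046 to 0.013 for Dnm1l over Opa1 and from -0.019 to 0.12 for Phb2 over Phb. The cause was not tested. Median-of-ratios scaling moved the median of all genes by 0.0415 on the log2 scale and quantile normalization by 0.047. Of the 10 genes Fundc1 had the fewest reads, 186 to 260, with a counting SD of 6.20% to 7.33%.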

Other observations

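Of the listed genes, 6 lay under the filter of 0.5 FPKM (Gdap1, Mtfr2, Nlrx1, Ppargc1a, Ppargc1b and Snph). Ppargc1a, which encodes the coactivator PGC-1alpha that drives mitochondrial biogenesis, is named here after its values were seen. It measured 0.0492, 0 and 0.0163 FPKM in Fyco1-/- lenses, against 0.163, 0.169 and 0.0977 FPKM in WT lenses. All Fyco1-/- values lay below all WT values, as in 18.6% of all tested genes, but all 6 were near the floor. In the fit without a filter the log2 fold change of Ppargc1a was -0.30 (limma adjusted p = 0.155). The authors' deposited table gives it a p of 0.00237 and no adjusted p. Of its relatives, Ppargc1b measured 0.406, 0.392 and 0.432 FPKM in Fyco1-/- lenses, against 0.512, 0.450 and 0.393 FPKM in WT lenses, with overlap.

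Other letters were searched in the same windows of 250 bases. CCGGAAG, the core bound by ETS factors such as GABPA, was in 4 of the 14 windows (1 each of Phb2, Bcl2l13, Mfn1 and Fis1) and in 6.91% of all RefSeq windows. Counted by gene, that is 4 of 10, against 7.83% of 27025 genes, which were not limited to genes tested here. TGACNNNGC, the antioxidant response core, was in 1 of the 14 windows, that of Bcl2l13, and in 10.2% of all. CACGTG (6.02% of all windows) and GTAAACA (3.17%) were in 0 of the 14 windows, which says only that these letters are not there.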
